A study of Homo sapiens with 6 samples.

Results

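The glycolysis and hypoxia genes are 40 genes taken by symbol. They cover glucose and lactate transporters, the enzymes of glycolysis, the kinases that hold back pyruvate oxidation, the alpha subunits of hypoxia-inducible factor (HIF) with their oxygen sensors, and transcripts that HIF induces. Of the 40, 39 had an entry among the 32575 genes listed in the deposited tables, and all 39 passed the filter on low values. SLC2A3, a glucose transporter of neurons, was not analysed here. The cells were SH-SY5Y, an established human neuroblastoma line, and mRNA was sequenced in 3 groups of 2 libraries. In the CSA knockdown a lentiviral short hairpin RNA targeted CSA (gene ERCC8), in the CSB knockdown it targeted CSB (gene ERCC6), and the control cells carried a control hairpin. Every group, the controls included, was thus transduced, selected with puromycin and grown for 2 to 3 weeks. The labels' genotype field calls the groups CSAmut, CSBmut and WT, while the growth protocol describes hairpins in all 3. The number of hairpins per gene and the origin of the 2 libraries of each group (separate transductions or a shared pool) were not given in the sources used here. Hence p-values measure only the spread between these libraries, which may be technical.

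Glycolysis breaks glucose down to pyruvate and yields ATP without oxygen. Lactate dehydrogenase can turn the pyruvate into lactate, which monocarboxylate transporters carry out of the cell, or pyruvate dehydrogenase can feed it to mitochondria. When oxygen is ample, prolyl hydroxylases (EGLN proteins) mark the HIF alpha subunits for breakdown through VHL, and when oxygen is short the subunits persist, pair with ARNT and switch on genes that hold a short ACGTG or GCGTG core, many glycolytic genes among them. HIF activity is set mainly by the stability of the alpha proteins, which mRNA levels do not measure. CSA recruits substrates to a ubiquitin ligase, CSB remodels chromatin, and both act when RNA polymerase stalls at DNA damage.

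Levels are given as scaled counts, the reads of a gene divided by a size factor of its library. The libraries held 19368272 to 26758162 gene-assigned reads. ERCC8 had 61.8 and 57.2 scaled counts in the CSA knockdown, 186.1 and 215.3 in the CSB knockdown, and 218.8 and 217.0 in the control (log2 fold change -1.86 ± 0.13 SE, limma adjusted p = 8.8e-07 for CSA knockdown versus control). ERCC6 had 617.8 and 611.3 in the CSA knockdown, 257.6 and 302.0 in the CSB knockdown, and 614.7 and 593.2 in the control (-1.11 ± 0.08, limma adjusted p = 2.1e-06 for CSB knockdown versus control). Each target was low in its own knockdown and in no other group.

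More of the glycolysis and hypoxia genes fell than rose in each knockdown. In the CSA knockdown 19 of 39 fell, 3 rose and 17 did not pass the test, with a median log2 fold change of -0.12, against 0.00 for all 28388 genes tested. Of all genes tested, 10.4% fell and 8.37% rose in that comparison. The genes mostly lie high in these cells, and among the 12083 genes that averaged at least 100 scaled counts the shares were 20.7% and 16.8%. In the CSB knockdown 17 of 39 fell, 3 rose and 19 did not pass, with a median of -0.10, against 0.10 for all genes. There, 8.86% of all genes tested fell and 14.8% rose, or 18.4% and 28.8% of the genes averaging at least 100. The up and down split of all genes in the CSB knockdown moved with the scaling, being 4191 up and 2515 down as deposited and 2783 up and 3053 down after TMM scaling, while the members stood at 2 up and 18 down after TMM scaling. Counts also dropped in fits that left out a library: 7 or 8 members fell in the CSA knockdown without control 1 or 2 and 12 or 11 without CSB 1 or 2, and 7 fell in the CSB knockdown without CSB 1, CSB 2 or control 1 and 9 without control 2. Over all fits that left out a library, as many or fewer members rose in the CSA knockdown. In the CSB knockdown fewer rose without a CSB or control library, but more rose without CSA 1 or CSA 2. A gene rose or fell where its Benjamini-Hochberg adjusted p, taken over all genes tested, was below 0.05 in limma. Both comparisons use the same control libraries. In bulk RNA, fewer cells of a type and less RNA per cell cannot be told apart.

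Together the 39 genes took 0.741 and 0.740% of all scaled counts in the CSA knockdown, 0.692 and 0.703% in the CSB knockdown, and 0.842 and 0.838% in the control. The groups did not overlap, and the control was highest. Most of that sum was lower glycolysis, the steps from glyceraldehyde phosphate to lactate, with 96748 and 98016 scaled counts in the CSA knockdown, 92466 and 94620 in the CSB knockdown, and 111036 and 110963 in the control. The HIF alpha subunits and prolyl hydroxylases summed to 6766 and 6313 in the CSA knockdown, 9962 and 10141 in the CSB knockdown, and 10435 and 10377 in the control. This sum was low in the CSA knockdown and lay just under the control in the CSB knockdown. These sums are descriptions and were not tested.

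**Figure D1:**
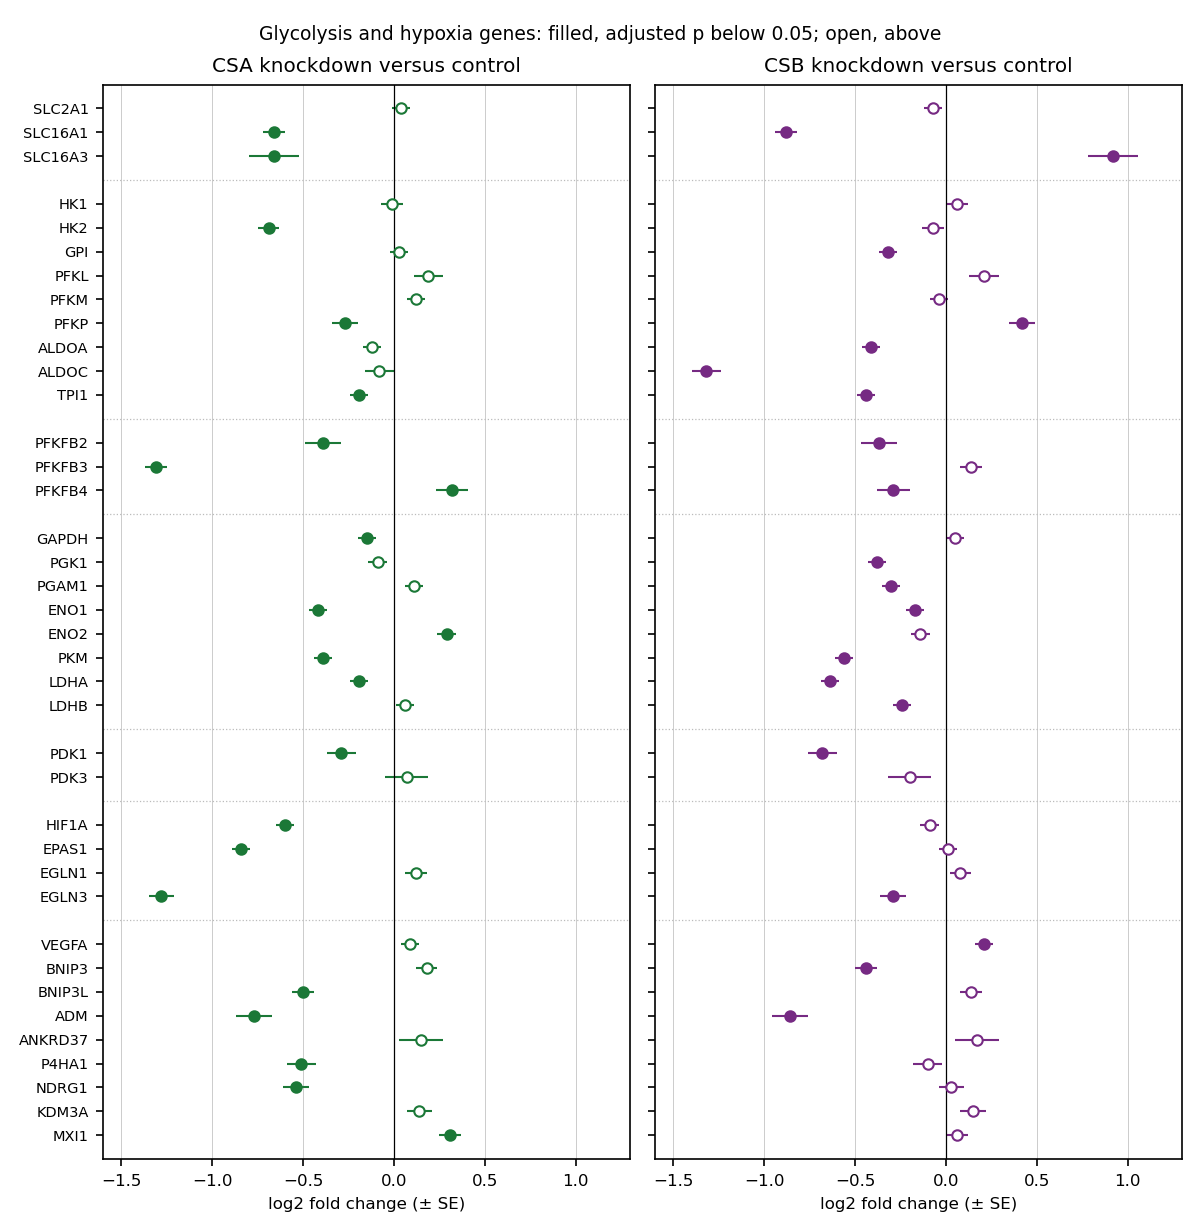
Log2 fold change (± SE) of 38 glycolysis and hypoxia genes in the CSA knockdown (left) and the CSB knockdown (right) versus control, in order of role, with 2 libraries per group. Filled points passed an adjusted p of 0.05 and open points did not; PFKFB3, EGLN3 and EPAS1 lie far left in the CSA knockdown, ALDOC in the CSB knockdown, and SLC16A3 and PFKP lie on opposite sides of 0. CA9, with at most 4 reads per library, is not drawn.

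HIF binds the cores ACGTG and GCGTG, so stretches before the start sites of 7 members described below are shown as examples that hold a core, with the cores in capitals. They come from the RefSeq promoter table (GRCh38.p14, 250 bases before to 50 after a start) and are written 5′ to 3′ on the gene's strand. Only stretches free of any exon in GENCODE v29 were chosen. A core on the other strand reads CACGT or CACGC, and CACGTG holds ACGTG on both strands.
HK2: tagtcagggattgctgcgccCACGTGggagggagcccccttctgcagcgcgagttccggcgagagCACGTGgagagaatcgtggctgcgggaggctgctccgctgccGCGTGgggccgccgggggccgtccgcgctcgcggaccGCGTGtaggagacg
PFKFB3: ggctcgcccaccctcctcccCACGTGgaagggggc
ALDOA: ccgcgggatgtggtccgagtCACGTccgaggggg
PGK1: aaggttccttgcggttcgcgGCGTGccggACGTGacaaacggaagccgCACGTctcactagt
LDHA: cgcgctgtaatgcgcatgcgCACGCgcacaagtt
SLC16A3: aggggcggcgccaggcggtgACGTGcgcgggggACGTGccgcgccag
BNIP3: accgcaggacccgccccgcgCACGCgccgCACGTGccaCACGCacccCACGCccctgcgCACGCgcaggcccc
The HK2 stretch is chr2:74834956-74835113 on the plus strand and holds 6 matches, ending 57 bases before its start site. The PFKFB3 stretch is chr10:6202804-6202838 (plus), the ALDOA stretch chr16:30065542-30065575 (plus), the PGK1 stretch chrX:78104017-78104078 (plus), the LDHA stretch chr11:18396208-18396241 (plus) and the SLC16A3 stretch chr17:82228954-82229000 (plus). Like that of HK2, each lies within the deposited span of its gene, between exons and before a further start site. The BNIP3 stretch, chr10:131982014-131982086 on the minus strand, lies directly before the gene.

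Over whole windows of 300 bases, a core on either strand was found in 44 of the 64 promoters listed for members (68.8%), against 17012 of 35116 promoters in the table (48.4%). Counted by gene over all its starts, 32 of 34 members with a listed promoter had a match, against 14318 of 27305 genes (52.4%), and members have more listed starts per gene than the table as a whole. The members were picked as glycolytic and hypoxia-induced genes, for which such cores are known. The members without a match were EGLN3 and PGAM1. Since nearly all members had one, matches cannot be set against the calls. The palindrome CACGTG stood in 8 of 64 member promoters (12.5%), against 7.26% of all. These matches are letters in a window and show no binding.

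The HIF alpha subunits fell in the CSA knockdown. HIF1A, the alpha subunit found in most tissues, had 2486.5 and 2299.3 scaled counts in the CSA knockdown, 3383.3 and 3451.9 in the CSB knockdown, and 3567.8 and 3701.1 in the control. EPAS1, which encodes HIF-2 alpha and is abundant in cells of the sympathetic lineage, had 2537.4 and 2375.6 in the CSA knockdown, 4372.0 and 4511.2 in the CSB knockdown, and 4423.2 and 4373.4 in the control. Both CSA libraries lay far under the other 4 for either gene. With CSA depleted HIF1A changed by -0.60 ± 0.05 (log2, SE; limma adjusted p = 8.1e-06) and EPAS1 by -0.84 ± 0.05 (limma adjusted p = 4.1e-07). With CSB depleted HIF1A stood at -0.09 ± 0.05 (limma adjusted p = 0.285) and EPAS1 at 0.01 ± 0.05 (limma adjusted p = 0.889).

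EGLN3, a prolyl hydroxylase that is itself HIF-induced and feeds back on the alpha subunits, fell in both knockdowns. It had 557.1 and 521.7 scaled counts in the CSA knockdown, 1083.4 and 1062.6 in the CSB knockdown, and 1368.6 and 1255.9 in the control. The 3 groups were fully separate, with the CSA knockdown lowest. EGLN3 fell by 1.28 on the log2 scale in the CSA knockdown (SE 0.07, limma adjusted p = 1.2e-07) and by 0.29 in the CSB knockdown (SE 0.07, limma adjusted p = 0.0064); the CSB knockdown call was lost without either CSB or either control library (adjusted p up to 0.160). The EGLN3 entry overlaps SPTSSA on the same strand, and SPTSSA stood at 0.07 (limma adjusted p = 0.647) in the CSA knockdown and at -0.25 (limma adjusted p = 0.0419) in the CSB knockdown. EGLN1, the main oxygen sensor in most cells, had 1184.7 and 1116.7 in the CSA knockdown, 1123.0 and 1115.4 in the CSB knockdown, and 1075.2 and 1046.6 in the control. The knockdown libraries lay slightly above the control, and it passed in neither comparison (limma adjusted p = 0.203 in the CSA knockdown and 0.398 in the CSB knockdown). EGLN2, the remaining HIF prolyl hydroxylase and no member, did not pass either (limma adjusted p = 0.728 in the CSA knockdown and 0.0952 in the CSB knockdown).

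Among 12 other regulators of the HIF pathway, chosen as a list and not by their changes, 4 fell and 1 rose in the CSA knockdown, and 2 fell and 4 rose in the CSB knockdown. Among genes averaging at least 100 scaled counts 20.7% fell and 16.8% rose in the CSA knockdown and 18.4% fell and 28.8% rose in the CSB knockdown, and the CSB counts lie near those shares. VHL, which hands hydroxylated HIF alpha to a ubiquitin ligase, fell in the CSA knockdown (-0.55 ± 0.05, limma adjusted p = 1.4e-05). SIAH2, a ubiquitin ligase for prolyl hydroxylases, fell there by 0.62 (SE 0.09, limma adjusted p = 2.7e-04), and HIF3A, an alpha subunit that can restrain the others, by 0.54 (SE 0.16, limma adjusted p = 0.0362). ARNT, the shared partner of the alpha subunits, rose by 0.22 in each knockdown (SE 0.05; limma adjusted p = 0.0086 in the CSA knockdown and 0.0074 in the CSB knockdown). ARNT2, of the same list, fell by 0.37 in the CSA knockdown (SE 0.05, limma adjusted p = 1.8e-04). It rose by 0.29 in the CSB knockdown (SE 0.05, limma adjusted p = 9.2e-04). In the CSB knockdown CITED2, which competes with HIF alpha for its coactivator, rose by 1.65 (SE 0.20, limma adjusted p = 6.8e-05). CUL2, the scaffold of the VHL ligase, fell there (-0.67 ± 0.07, limma adjusted p = 2.8e-05).

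The PFKFB enzymes make and break fructose-2,6-bisphosphate, a strong activator of phosphofructokinase, and the 3 that are members each took a different course. PFKFB1, which is no member, had 13 to 23 reads per library and did not pass the test (limma adjusted p = 0.679 in the CSA knockdown and 0.529 in the CSB knockdown). PFKFB3, whose kinase activity dominates, had 423.8 and 453.0 scaled counts in the CSA knockdown, 1166.0 and 1234.2 in the CSB knockdown, and 1079.2 and 1098.7 in the control. PFKFB4 had 370.7 and 343.3 in the CSA knockdown, 235.6 and 230.2 in the CSB knockdown, and 271.5 and 299.0 in the control. For PFKFB3 the CSA knockdown lay far under the other groups, whereas for PFKFB4 it lay above both. PFKFB3 fell by 1.31 in the CSA knockdown (SE 0.06, limma adjusted p = 7.5e-08), to 0.403 of the control, and stood at 0.14 (limma adjusted p = 0.147) in the CSB knockdown. PFKFB4 rose by 0.32 in the CSA knockdown (SE 0.09, limma adjusted p = 0.0256) and fell by 0.29 in the CSB knockdown (SE 0.09, limma adjusted p = 0.0357). PFKFB2, an isoform first known from heart, had 304.6 and 262.3 in the CSA knockdown, 266.4 and 308.6 in the CSB knockdown, and 383.9 and 359.8 in the control, a fall of 0.39 (SE 0.10, limma adjusted p = 0.018) and of 0.37 (SE 0.10, limma adjusted p = 0.0195). The PFKFB2 and PFKFB4 calls against control were lost without any single library (adjusted p up to 0.269 for PFKFB2 and 0.218 for PFKFB4), and those of PFKFB4 also in DESeq2. PFKFB2 overlaps YOD1, which fell by 0.42 in the CSA knockdown (limma adjusted p = 0.00463).

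In the steps from glucose to triose phosphate, 3 of 9 genes fell and none rose in the CSA knockdown, and 4 fell and 1 rose in the CSB knockdown. Of genes averaging at least 100 scaled counts, 20.7% fell and 16.8% rose in the CSA knockdown. For the CSB knockdown these shares were 18.4% and 28.8%. HK2, the inducible hexokinase that traps glucose as glucose-6-phosphate, had 1010.2 and 1032.8 scaled counts in the CSA knockdown, 1530.4 and 1620.3 in the CSB knockdown, and 1647.1 and 1652.3 in the control. HK1, the constitutive hexokinase of brain, had 2907.0 and 3191.9 in the CSA knockdown, 3141.1 and 3281.9 in the CSB knockdown, and 3149.0 and 2995.0 in the control. HK2 was thus low in both CSA libraries, while the groups of HK1 overlapped. HK2 fell by 0.69 in the CSA knockdown (SE 0.06, limma adjusted p = 3.4e-06) and stood at -0.07 (limma adjusted p = 0.447) in the CSB knockdown. HK1 stood at -0.01 (limma adjusted p = 0.93) in the CSA knockdown and 0.06 (limma adjusted p = 0.488) in the CSB knockdown. A long noncoding entry that overlaps HK2 on the other strand, RP11-259N19.1, fell with it in the CSA knockdown (-0.83 ± 0.17, limma adjusted p = 0.00441).

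ALDOC, the aldolase of brain, was the member that fell most in the CSB knockdown. It had 480.2 and 459.7 scaled counts in the CSA knockdown, 208.1 and 189.8 in the CSB knockdown, and 491.4 and 505.4 in the control. ALDOA, the aldolase of muscle and most tissues, had 9733.4 and 9588.1 in the CSA knockdown, 7808.2 and 7960.6 in the CSB knockdown, and 10560.1 and 10403.0 in the control. Both aldolases were lowest in the CSB knockdown, and no library of another group reached its values. With CSB depleted ALDOC fell by 1.32 (SE 0.08, limma adjusted p = 4.4e-07) and ALDOA by 0.41 (SE 0.05, limma adjusted p = 4.3e-05). With CSA depleted ALDOC stood at -0.08 (limma adjusted p = 0.545) and ALDOA at -0.12 (limma adjusted p = 0.105). The entry RP11-192H23.4, on the same strand as ALDOC and overlapping it, rose in the CSB knockdown (0.56 ± 0.14, limma adjusted p = 0.0106).

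The phosphofructokinases, which commit sugar to glycolysis, split by isoform. PFKP, the platelet-type isoform, had 1943.4 and 2270.7 scaled counts in the CSA knockdown, 3371.2 and 3446.1 in the CSB knockdown, and 2540.3 and 2542.6 in the control. It lay under the control in the CSA knockdown and above it in the CSB knockdown, with no overlap. PFKP fell by 0.27 in the CSA knockdown (SE 0.07, limma adjusted p = 0.012) and rose by 0.42 in the CSB knockdown (SE 0.07, limma adjusted p = 5.6e-04). Without a single library its calls against control were lost for every library but CSA 2 in the CSA knockdown (adjusted p up to 0.231), and for the CSB and control libraries in the CSB knockdown (up to 0.144). PFKL, the liver type, had 3175.8 and 3871.9 in the CSA knockdown, 3557.3 and 3569.8 in the CSB knockdown, and 3133.1 and 3036.5 in the control. PFKM, the muscle type, had 3916.1 and 4045.4 in the CSA knockdown, 3530.9 and 3585.5 in the CSB knockdown, and 3696.1 and 3618.1 in the control. Neither passed against control, with the smallest limma adjusted p at 0.0683 for PFKL in the CSB knockdown. GPI, which turns glucose-6-phosphate into fructose-6-phosphate, had 4788.7 and 5199.4 in the CSA knockdown, 3872.2 and 3963.4 in the CSB knockdown, and 4896.6 and 4900.1 in the control, and fell in the CSB knockdown (-0.32 ± 0.05, limma adjusted p = 6.9e-04; up to 0.0853 without a single CSB or control library). TPI1, which interconverts the triose phosphates, had 8379.6 and 7980.3 in the CSA knockdown, 7034.2 and 6697.5 in the CSB knockdown, and 9242.2 and 9405.6 in the control. TPI1 fell by 0.19 in the CSA knockdown (SE 0.05, limma adjusted p = 0.019; up to 0.215 without a single library, lost for all but CSA 1) and by 0.44 in the CSB knockdown (SE 0.05, limma adjusted p = 4.6e-05).

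**Figure D2:**
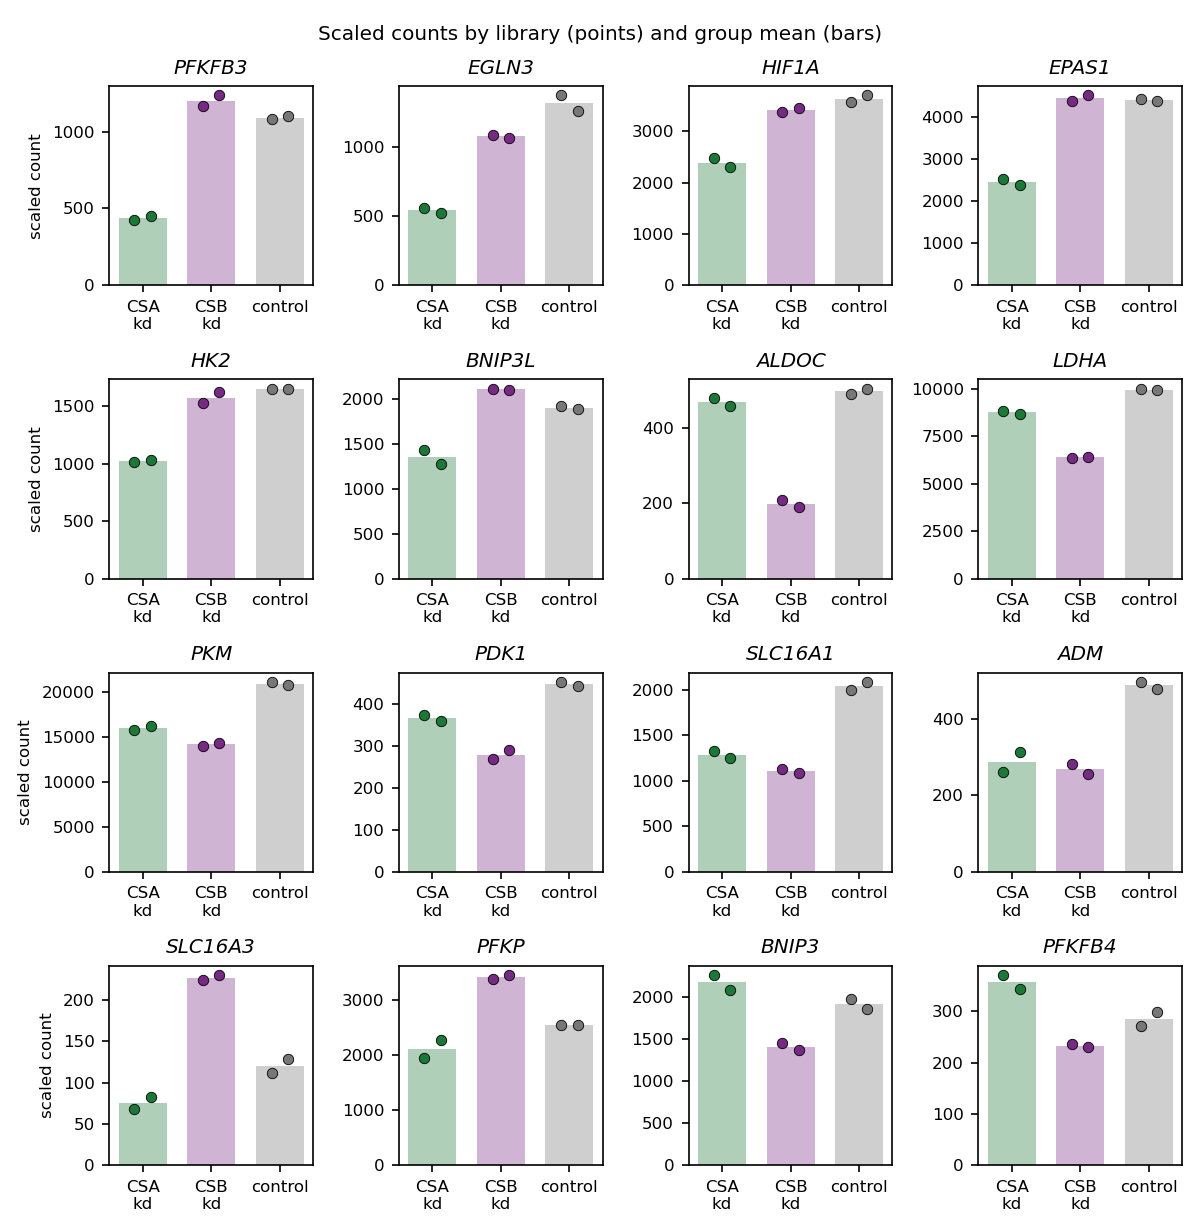
Scaled counts of 16 members in each of the 6 libraries (points) with group means (bars), for the CSA knockdown, the CSB knockdown and the control; each axis starts at 0. PFKFB3, EGLN3, HIF1A, EPAS1, HK2 and BNIP3L are lowest in the CSA knockdown, ALDOC, LDHA, PKM, PDK1 and BNIP3 in the CSB knockdown, and SLC16A1 and ADM are below the control in both knockdowns.

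Of the 8 genes from glyceraldehyde phosphate to lactate, 4 fell and 1 rose in the CSA knockdown, and 6 fell and none rose in the CSB knockdown. Shares among genes averaging at least 100 scaled counts were 20.7% down and 16.8% up in the CSA knockdown, and 18.4% down and 28.8% up in the CSB knockdown. PKM, the pyruvate kinase outside liver and red cells, had 15714.4 and 16227.5 scaled counts in the CSA knockdown, 13985.9 and 14346.2 in the CSB knockdown, and 21107.2 and 20734.6 in the control. LDHA, the dehydrogenase subunit that favours lactate formation, had 8821.9 and 8688.8 in the CSA knockdown, 6360.4 and 6400.5 in the CSB knockdown, and 10005.1 and 9920.7 in the control. Both genes were highest in the control and lowest in the CSB knockdown, with no overlap. PKM fell by 0.39 in the CSA knockdown (SE 0.05, limma adjusted p = 1.2e-04; 0.0585 without control 1) and by 0.56 in the CSB knockdown (SE 0.05, limma adjusted p = 5.6e-06). LDHA fell by 0.19 in the CSA knockdown (SE 0.05, limma adjusted p = 0.0124; up to 0.137 without a single CSB or control library) and by 0.64 in the CSB knockdown (SE 0.05, limma adjusted p = 1.3e-06). LDHB, the subunit of aerobic tissues, had 15608.2 and 16860.8 in the CSA knockdown, 13154.7 and 13119.4 in the CSB knockdown, and 15516.3 and 15574.1 in the control. Its CSB libraries lay under the other 4, and it fell there by 0.24 (SE 0.05, limma adjusted p = 0.00432; up to 0.141 without a single CSB or control library), and stood at 0.06 (limma adjusted p = 0.478) in the CSA knockdown.

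The enolases, which form phosphoenolpyruvate, moved apart in the CSA knockdown. ENO1, the ubiquitous form, had 18607.3 and 19229.7 scaled counts in the CSA knockdown, 22069.4 and 23105.4 in the CSB knockdown, and 25204.1 and 25557.5 in the control. ENO2, the neuron-specific form, had 4682.4 and 4903.7 in the CSA knockdown, 3557.3 and 3569.0 in the CSB knockdown, and 3947.7 and 3906.6 in the control. ENO1 was lowest and ENO2 highest in the CSA knockdown. With CSA depleted ENO1 fell by 0.42 (SE 0.05, limma adjusted p = 8.5e-05) and ENO2 rose by 0.29 (SE 0.05, limma adjusted p = 0.00107), calls lost without either control library (up to 0.0563 and 0.0755). With CSB depleted ENO1 fell by 0.17 (SE 0.05, limma adjusted p = 0.0301; up to 0.239, lost for every single library but CSA 1), and ENO2 stood at -0.14 (limma adjusted p = 0.0538).

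PGK1, which makes ATP from bisphosphoglycerate, had 7059.4 and 6550.7 scaled counts in the CSA knockdown, 5560.0 and 5607.6 in the CSB knockdown, and 7208.1 and 7309.6 in the control. PGAM1, the mutase after it, had 4427.7 and 4223.8 in the CSA knockdown, 3290.9 and 3259.6 in the CSB knockdown, and 3946.7 and 4093.7 in the control. For both, the CSB libraries lay under the other 4. They fell in the CSB knockdown (PGK1 by 0.38, limma adjusted p = 1.7e-04; PGAM1 by 0.30, limma adjusted p = 8.6e-04; SE 0.05 each) and lost the call without a single CSB or control library (up to 0.0634 and 0.0725). GAPDH, the dehydrogenase often used as a loading control and the most abundant member, had 21826.5 and 21330.6 in the CSA knockdown, 24487.2 and 25211.7 in the CSB knockdown, and 24101.1 and 23866.6 in the control. Its call in the CSA knockdown (-0.15 ± 0.05, limma adjusted p = 0.0497) was lost in 9 of 12 other settings and without any single library (up to 0.268). Near-identical pseudogene copies had at most 5.32% of a member's reads (BNIP3), with 2.69% for LDHA and 1.44% for TPI1.

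Lactate export and glucose import differed between genes. SLC16A1 (MCT1), a transporter of lactate and pyruvate, had 1329.9 and 1248.3 scaled counts in the CSA knockdown, 1126.3 and 1086.5 in the CSB knockdown, and 1997.2 and 2088.3 in the control. SLC16A3 (MCT4), the HIF-induced lactate exporter, had 68.29 and 82.97 in the CSA knockdown, 224.6 and 230.2 in the CSB knockdown, and 111.4 and 128.3 in the control. SLC16A1 was below the control in all 4 knockdown libraries, whereas SLC16A3 was below it in the CSA knockdown and above it in the CSB knockdown. SLC16A1 fell by 0.66 in the CSA knockdown (SE 0.06, limma adjusted p = 6.6e-06) and by 0.88 in the CSB knockdown (SE 0.06, limma adjusted p = 6.7e-07). SLC16A3 fell by 0.66 in the CSA knockdown (SE 0.14, limma adjusted p = 0.00521) and rose by 0.92 in the CSB knockdown (SE 0.14, limma adjusted p = 4.2e-04). Its call in the CSA knockdown was lost without any single library (up to 0.141), and that in the CSB knockdown without CSB 1, CSB 2 or control 1 (up to 0.0919). SLC16A3 overlaps the far more abundant CSNK1D on the other strand, which rose by 0.18 in the CSA knockdown (limma adjusted p = 0.0345) and 0.25 in the CSB knockdown (limma adjusted p = 0.00399). It also overlaps RP13-516M14.10 on its own strand, which stood at -0.06 (limma adjusted p = 0.881) in the CSA knockdown and 0.56 (limma adjusted p = 0.0739) in the CSB knockdown, and was higher in the CSB knockdown than in the CSA knockdown (0.62 ± 0.21, limma adjusted p = 0.0402). SLC2A1 (GLUT1), the basal glucose transporter, had 1974.9 and 2116.2 in the CSA knockdown, 1909.1 and 1874.4 in the CSB knockdown, and 1972.4 and 1991.9 in the control, and passed in neither comparison (limma adjusted p = 0.649 in the CSA knockdown and 0.432 in the CSB knockdown).

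PDK1, a HIF-induced kinase that switches pyruvate dehydrogenase off, had 372.9 and 359.5 scaled counts in the CSA knockdown, 268.6 and 290.4 in the CSB knockdown, and 452.6 and 442.7 in the control. The 3 groups were separate, with the CSB knockdown lowest. PDK1 fell by 0.29 in the CSA knockdown (SE 0.08, limma adjusted p = 0.0241; lost for every single library but CSB 2 and in DESeq2, up to 0.171) and by 0.68 in the CSB knockdown (SE 0.08, limma adjusted p = 6.3e-05). PDK3, another kinase of the complex, had 150.7 and 144.0 in the CSA knockdown, 127.7 and 117.2 in the CSB knockdown, and 144.2 and 137.0 in the control, and passed in neither comparison (limma adjusted p = 0.765 in the CSA knockdown and 0.284 in the CSB knockdown). Of 13 other genes of pyruvate entry into mitochondria, none passed in the CSA knockdown, and 2 rose and 4 fell in the CSB knockdown. Genes averaging at least 100 scaled counts rose in 16.8% and fell in 20.7% of cases in the CSA knockdown. For the CSB knockdown these shares were 28.8% and 18.4%. PDK4, the kinase induced by fasting, rose by 1.10 there (SE 0.14, limma adjusted p = 1.4e-04).

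Of the 10 hypoxia-induced targets, 4 fell and 1 rose in the CSA knockdown, and 2 fell and 1 rose in the CSB knockdown. Genes averaging at least 100 scaled counts fell in 20.7% and rose in 16.8% of cases in the CSA knockdown. For the CSB knockdown these shares were 18.4% and 28.8%, and the count of targets that fell there lies near its share. ADM, the vasodilator peptide adrenomedullin, had 260.1 and 312.8 scaled counts in the CSA knockdown, 280.8 and 255.8 in the CSB knockdown, and 496.3 and 478.4 in the control. All 4 knockdown libraries lay far under the control. ADM fell by 0.77 in the CSA knockdown (SE 0.10, limma adjusted p = 1.6e-04; up to 0.0805, lost without CSB 2, control 1 or control 2) and by 0.86 in the CSB knockdown (SE 0.10, limma adjusted p = 5.5e-05; up to 0.0725, lost without CSB 1, CSB 2 or control 1). VEGFA, the angiogenic growth factor, had 2945.0 and 3037.4 in the CSA knockdown, 3321.7 and 3167.2 in the CSB knockdown, and 2798.9 and 2804.0 in the control. It rose by 0.21 in the CSB knockdown (SE 0.05, limma adjusted p = 0.00813), a call lost under edgeR with TMM, DESeq2, limma with TMM and the length correction, and without a single CSB or control library (up to 0.130). For the CSA knockdown it stood at 0.09 (limma adjusted p = 0.236).

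The mitophagy receptors BNIP3 and BNIP3L (NIX), which mark mitochondria for removal, gave opposite pictures. BNIP3 had 2253.4 and 2082.8 scaled counts in the CSA knockdown, 1447.8 and 1364.6 in the CSB knockdown, and 1976.3 and 1849.1 in the control. BNIP3L had 1429.7 and 1276.0 in the CSA knockdown, 2118.3 and 2102.1 in the CSB knockdown, and 1924.6 and 1892.5 in the control. BNIP3 was lowest in the CSB knockdown and BNIP3L in the CSA knockdown. BNIP3 fell by 0.44 in the CSB knockdown (SE 0.06, limma adjusted p = 2.1e-04; up to 0.0847, lost without CSB 1, CSB 2 or control 1) and stood at 0.18 (limma adjusted p = 0.0616) in the CSA knockdown. BNIP3L fell by 0.50 in the CSA knockdown (SE 0.06, limma adjusted p = 9.9e-05; up to 0.0668, lost without CSB 2, control 1 or control 2) and stood at 0.14 (limma adjusted p = 0.113) in the CSB knockdown. BNIP3L overlaps PNMA2, which fell by 0.42 in the CSA knockdown (limma adjusted p = 3.2e-04) and by 0.39 in the CSB knockdown (limma adjusted p = 4.7e-04).

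P4HA1, a collagen prolyl hydroxylase, had 324.1 and 338.6 scaled counts in the CSA knockdown, 429.4 and 448.8 in the CSB knockdown, and 487.4 and 455.3 in the control. NDRG1, a stress-induced growth suppressor, had 502.9 and 513.1 in the CSA knockdown, 722.3 and 784.6 in the CSB knockdown, and 703.2 and 772.6 in the control. Both were low in the CSA knockdown, where P4HA1 fell by 0.51 (SE 0.08, limma adjusted p = 5.3e-04; 0.0599 without control 1) and NDRG1 by 0.54 (SE 0.07, limma adjusted p = 2.2e-04; up to 0.0592, lost without CSA 2 or control 2). MXI1, an antagonist of MYC, had 1481.7 and 1432.4 in the CSA knockdown, 1223.2 and 1228.4 in the CSB knockdown, and 1212.5 and 1145.9 in the control, and rose in the CSA knockdown (0.31 ± 0.06, limma adjusted p = 0.00209; up to 0.0809, lost without CSB 2, control 1 or control 2). KDM3A, a histone demethylase, had 1466.5 and 1273.1 in the CSA knockdown, 1386.1 and 1367.9 in the CSB knockdown, and 1227.4 and 1249.1 in the control. ANKRD37, an ankyrin repeat protein, had 131.2 and 133.5 in the CSA knockdown, 134.3 and 133.7 in the CSB knockdown, and 120.4 and 117.7 in the control. The control was lowest for both, by log2 fold changes of 0.14 to 0.17 that did not pass the test. CA9, the tumour carbonic anhydrase often used as a marker of hypoxia, had 1 and 3 reads in the CSA knockdown, 3 and 4 in the CSB knockdown, and 2 and 2 in the control, too few for a fold change.

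A further list of 30 hypoxia-induced genes, of which 29 were tested, held 11 that fell and 3 that rose in the CSA knockdown (median -0.24), and 6 that fell and 10 that rose in the CSB knockdown (median 0.16). The medians of all genes tested were 0.00 in the CSA knockdown and 0.10 in the CSB knockdown. Among genes averaging at least 100, 20.7% fell and 16.8% rose in the CSA knockdown. For the CSB knockdown these shares were 18.4% and 28.8%, and the CSB counts lie near them. Some genes of the list, such as HMOX1 and RAB20, averaged less. Of all genes tested, 10.4% fell and 8.37% rose in the CSA knockdown, and 8.86% fell and 14.8% rose in the CSB knockdown. STC2, a secreted glycoprotein, fell by 1.77 in the CSA knockdown (SE 0.18, limma adjusted p = 2.1e-05). AK4, a mitochondrial adenylate kinase, rose by 0.71 in the CSA knockdown (SE 0.09, limma adjusted p = 1.4e-04) and fell by 1.10 in the CSB knockdown (SE 0.09, limma adjusted p = 3.9e-06). RORA, a nuclear receptor, rose by 1.45 in the CSB knockdown (SE 0.11, limma adjusted p = 2.8e-06).

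Among 16 further enzymes of glycolysis and gluconeogenesis, 4 fell and 1 rose in each knockdown, counts to be read against the same shares of all genes. FBP1, which opposes phosphofructokinase in gluconeogenesis, rose by 1.28 in the CSA knockdown (SE 0.13, limma adjusted p = 2.7e-05). BPGM, which makes 2,3-bisphosphoglycerate, fell by 0.32 in the CSA knockdown (SE 0.09, limma adjusted p = 0.0269) and by 0.52 in the CSB knockdown (SE 0.09, limma adjusted p = 0.00122). ADPGK, a glucokinase that uses ADP, fell by 0.31 in the CSA knockdown (SE 0.06, limma adjusted p = 0.00294) and rose by 0.27 in the CSB knockdown (SE 0.06, limma adjusted p = 0.00623). Of 8 pentose phosphate genes, 3 fell and none rose in the CSA knockdown, and 3 fell and 1 rose in the CSB knockdown. These counts, too, are to be read against the shares of all genes. TKT, the transketolase that returns sugars to glycolysis, fell by 0.19 in the CSA knockdown (SE 0.05, limma adjusted p = 0.0154) and by 0.46 in the CSB knockdown (SE 0.05, limma adjusted p = 2.2e-05).

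Set directly against the CSA knockdown, the CSB knockdown had 12 of 39 members higher, 16 lower and 11 that did not pass the test. Of all genes tested 18.1% were higher and 11.3% lower in this comparison, or 32.7% and 21.9% of the genes averaging at least 100. TMM scaling moved the split of all genes to 3845 higher and 4006 lower, against 5128 and 3212 as deposited, and that of the members to 11 and 18. The higher genes held 3 of the 4 HIF subunits and hydroxylases, namely EGLN3 (0.99 ± 0.07, limma adjusted p = 2.3e-07), EPAS1 (0.85 ± 0.05, limma adjusted p = 1.0e-07) and HIF1A (0.52 ± 0.05, limma adjusted p = 1.2e-05). They also held SLC16A3 (1.58 ± 0.14, limma adjusted p = 2.9e-06), PFKFB3 (1.45 ± 0.06, limma adjusted p = 7.8e-09), PFKP (0.70 ± 0.07, limma adjusted p = 5.7e-06), BNIP3L (0.64 ± 0.06, limma adjusted p = 5.1e-06) and HK2 (0.62 ± 0.06, limma adjusted p = 2.9e-06). The lower genes held 6 of the 8 lower glycolysis genes, all but GAPDH and ENO1, with LDHA at -0.46 ± 0.05 (limma adjusted p = 8.3e-06), ENO2 at -0.43 ± 0.05 (limma adjusted p = 2.3e-05) and PGAM1 at -0.40 ± 0.05 (limma adjusted p = 5.0e-05). ALDOC (-1.24 ± 0.08, limma adjusted p = 2.3e-07), BNIP3 (-0.62 ± 0.06, limma adjusted p = 7.1e-06) and PFKFB4 (-0.61 ± 0.09, limma adjusted p = 2.1e-04) were the members with the most negative values. These named fold changes stayed past the threshold in all 18 other settings, whereas without CSB 1 or CSB 2 the count of lower members was 9 or 8, with PGK1, LDHB and PKM among those lost (adjusted p up to 0.0746, 0.0784 and 0.132). ADM, which was low in both knockdowns, stood at -0.09 ± 0.10 (limma adjusted p = 0.555) between them.

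**Figure D3:**
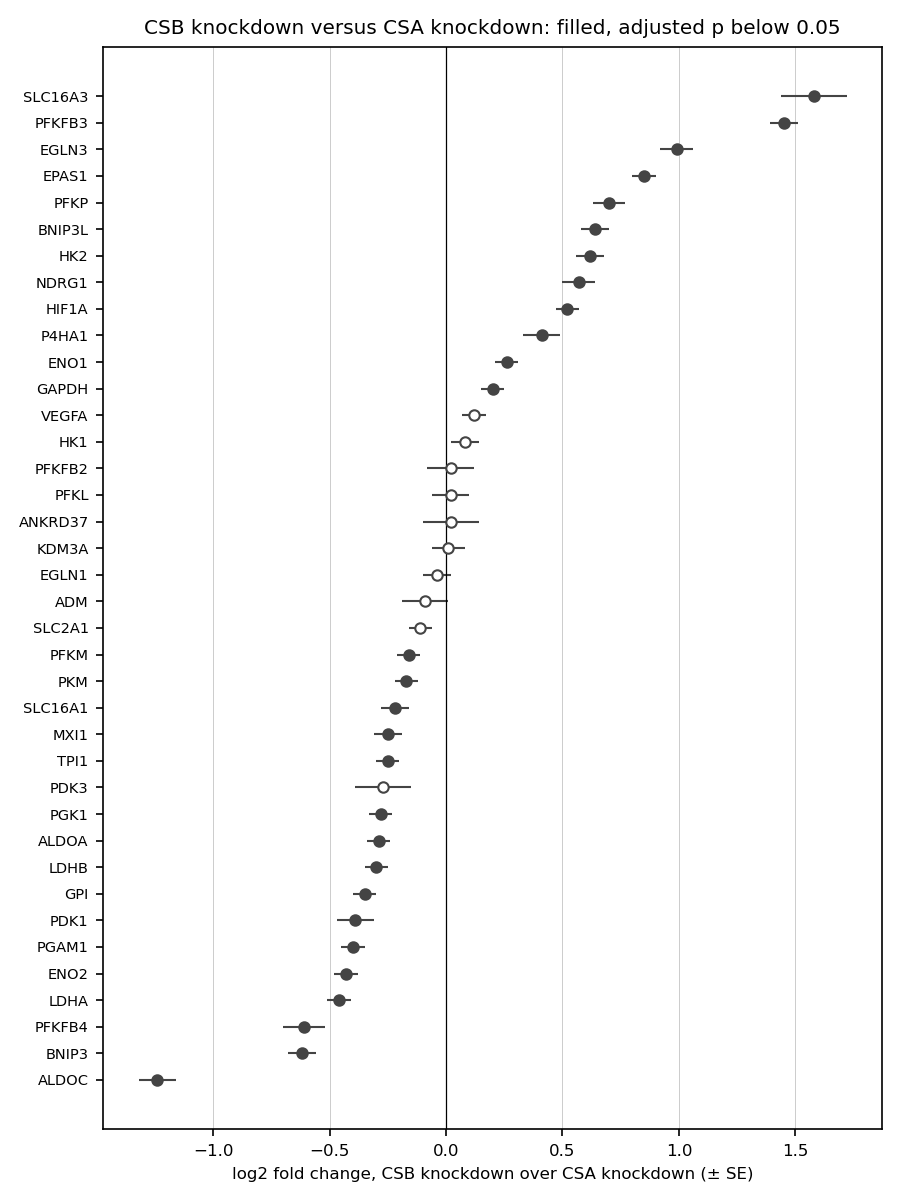
Log2 fold change (± SE) of 38 members in the CSB knockdown over the CSA knockdown, sorted, with 2 libraries per group; filled points passed an adjusted p of 0.05. SLC16A3, PFKFB3, EGLN3 and EPAS1 stand at the upper end and ALDOC at the lower end; CA9 is not drawn.

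Divided by gene length, scaled counts of paralogs were set side by side, here as the share of each in its family's level per kb. The order of paralogs within a library depends on the deposited gene lengths. HK2 made up 25.8 and 24.5% of hexokinase in the CSA knockdown, 32.8 and 33.1% in the CSB knockdown, and 34.4 and 35.6% in the control. PFKP made up 31.0 and 32.2% of phosphofructokinase in the CSA knockdown, 44.1 and 44.4% in the CSB knockdown, and 38.0 and 38.6% in the control. PFKM led in the CSA knockdown, and PFKP led in the CSB knockdown and narrowly in the control, where PFKM made up 36.7 and 36.5%. Before division by length, PFKP had the lowest scaled counts of the 3 isoforms in every library. ENO2 made up 18.9 and 19.1% of enolase in the CSA knockdown, 13.0 and 12.5% in the CSB knockdown, and 12.6 and 12.4% in the control. The neuronal enolase share was thus highest with the CSA knockdown. ALDOC gave 9.39 and 9.15% of aldolase in the CSA knockdown, 5.3 and 4.77% in the CSB knockdown, and 8.91 and 9.26% in the control. SLC16A3 gave 2.94 and 3.78% of the SLC16A1 and SLC16A3 sum in the CSA knockdown, 10.5 and 11.1% in the CSB knockdown, and 3.19 and 3.50% in the control. BNIP3 gave 56.0 and 56.9% of the sum with BNIP3L in the CSA knockdown, 35.6 and 34.4% in the CSB knockdown, and 45.4 and 44.1% in the control. Per kb, BNIP3 was the larger of the pair in the CSA knockdown and the smaller in the other groups. Before division by length the pair was nearly level in the control, with means of 1912.7 scaled counts for BNIP3 and 1908.6 for BNIP3L. EGLN3 was 31.7 and 31.6% of the sum with EGLN1 in the CSA knockdown, 48.8 and 48.5% in the CSB knockdown, and 55.7 and 54.2% in the control. LDHA gave 21.4 and 19.8% of lactate dehydrogenase in the CSA knockdown, 18.8 and 19.0% in the CSB knockdown, and 23.6 and 23.4% in the control, LDHB being the larger everywhere. These shares were not tested.

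**Figure D4:**
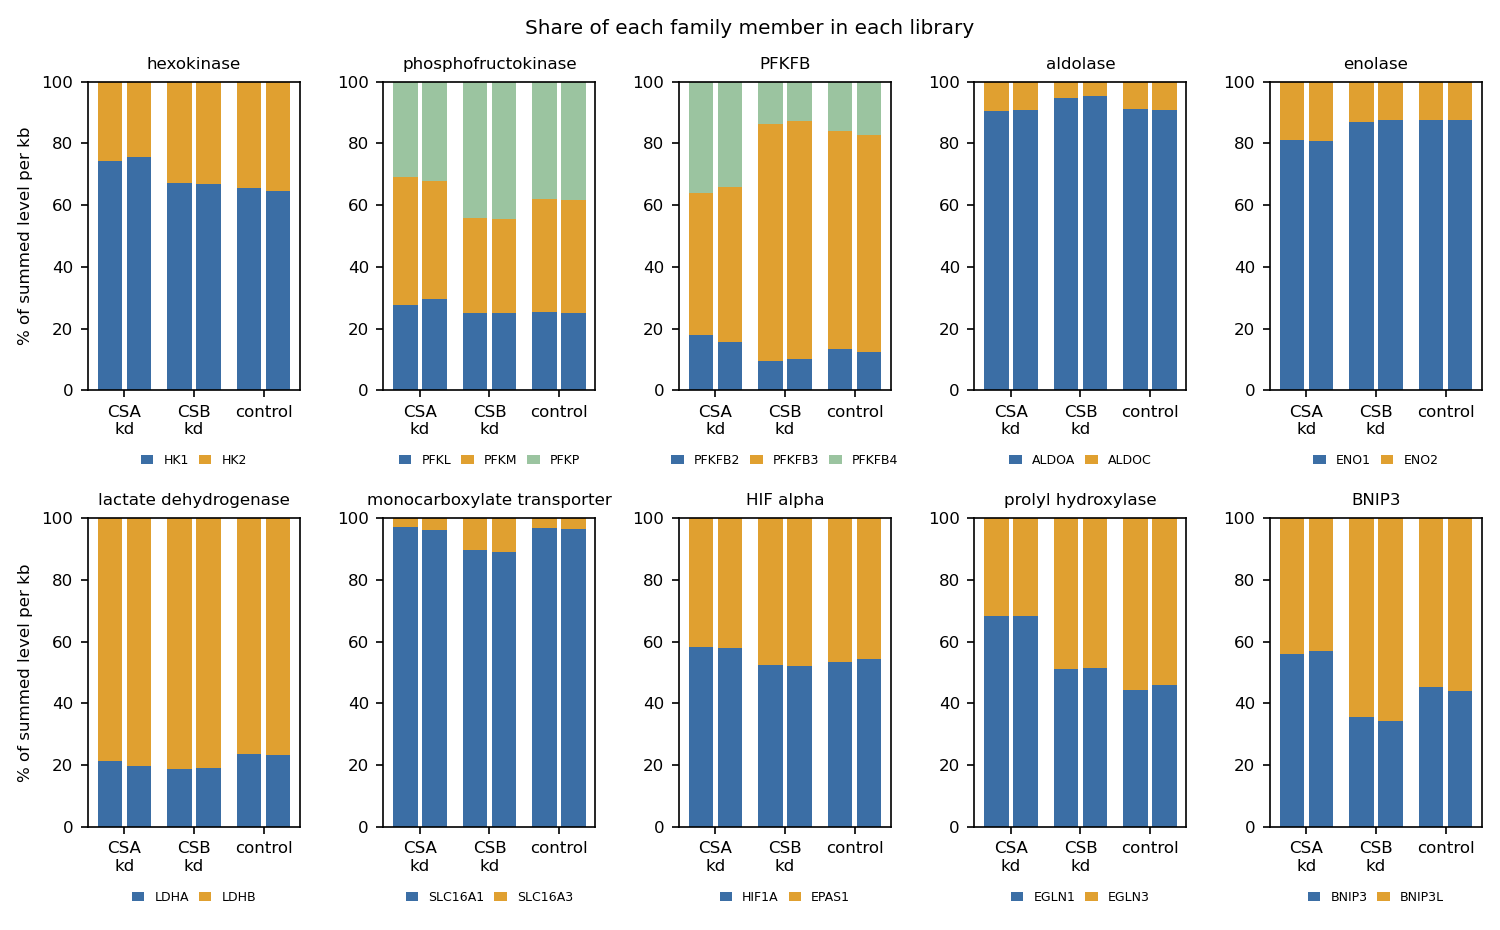
Share of each paralog in its family's summed level per kb of gene length, as stacked bars (% of the sum), 1 bar per library, for the CSA knockdown, the CSB knockdown and the control. PFKFB1 is left out of the PFKFB sum, in which the PFKFB3 share is 46.1 and 50.2% in the CSA knockdown, 76.7 and 76.8% in the CSB knockdown, and 70.6 and 70.4% in the control; PFKP, SLC16A3 and BNIP3L take their widest shares in the CSB knockdown.

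Other features of the cells also differed between the groups. The counts below are to be read against genes averaging at least 100 scaled counts. Of those, 20.7% fell and 16.8% rose in the CSA knockdown, and 18.4% fell and 28.8% rose in the CSB knockdown. All 12 genes of a G2/M list fell in the CSA knockdown, and 3 rose and 2 fell in the CSB knockdown. Their sum was 26934 and 25697 scaled counts in the CSA knockdown, 43245 and 43968 in the CSB knockdown, and 41860 and 41381 in the control. Of 12 markers of mesenchymal-type neuroblastoma cells, 10 fell and none rose in the CSA knockdown, and 8 rose and 1 fell in the CSB knockdown. Their sum was 24250 and 24059 in the CSA knockdown, 62597 and 64292 in the CSB knockdown, and 45108 and 43967 in the control. It thus ran in the same order of groups as SLC16A3 and PFKP, whereas ALDOC, LDHA, PKM and PDK1 were lowest in the CSB knockdown. Another 8 members, PFKFB3 among them, fell in the CSA knockdown and did not pass against control in the CSB knockdown. All 15 noradrenergic neuroblastoma markers were detected, summing to 168074 and 174263 in the CSA knockdown, 141074 and 142382 in the CSB knockdown, and 153806 and 149715 in the control. Of them, 6 rose and 4 fell in the CSA knockdown, and 4 rose and 5 fell in the CSB knockdown. CHGA, for example, rose by 0.71 and GATA3 fell by 0.31 in the CSA knockdown, while CHGA fell by 2.04 and GATA3 rose by 0.18 in the CSB knockdown (limma adjusted p at most 0.0169). Epithelial markers (4 of 5 with an entry) summed to 93.22 and 87.74 in the CSA knockdown, 180.6 and 184.8 in the CSB knockdown, and 120.4 and 136.0 in the control. KRT18 among them fell by 1.71 in the CSA knockdown (SE 0.19, limma adjusted p = 5.6e-05). The others did not pass there and went both ways, with EPCAM at 0.75 (limma adjusted p = 0.0731), CDH1 at 1.28 (limma adjusted p = 0.196) and KRT8 at -0.29 (limma adjusted p = 0.678). Blood and endothelial markers (4 of 6 with an entry) summed to 19.51 and 16.21 in the CSA knockdown, 17.62 and 17.33 in the CSB knockdown, and 22.88 and 397.4 in the control. Control 2 stood apart through 1 gene, HBB, which had 387 reads there and 0 in every other library. The leukocyte marker PTPRC was at 0 in all 4 knockdown libraries and at 1.989 and 3.858 in the control, which are 2 and 4 reads. The part of cell state or cycling in the changes of the glycolysis and hypoxia genes was not tested.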

How the data were processed

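Messenger RNA was sequenced from 6 SH-SY5Y libraries, 2 each of the CSA knockdown, the CSB knockdown and the control. Libraries were made from 1 µg of total RNA with an Illumina TruSeq kit, per the labels' protocols. HISAT2 2.0.4, FastQC and the build hg38 are listed in the submitters' processing notes. Neither the counting tool nor its strand setting was named in the labels, notes or headers.

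FPKM is the name of the value columns per the file headers, yet every deposited value was a whole multiple of its library's smallest value (tolerance 0.01 of a step). The values are thus a signal as deposited, gene reads divided by a size factor per library, called the scaled count here. Reads were recovered by dividing by that smallest value, and a gene without an entry was taken as 0. The 2 libraries of a group differed by more than counting noise (chi-square per degree of freedom 1.95 to 5.06), so none was counted as a repeat.

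The test was limma 3.58.1 in R 4.3.3, with its trended variance prior, on log2(scaled count + 1) over all 6 libraries (3 residual degrees of freedom). It covered the 28388 genes that averaged 1 or more scaled counts in some group. p-values were two-sided and Benjamini-Hochberg adjusted over those genes, with a threshold of 0.05; a fold change is on the log2(scaled count + 1) scale, which understates changes of genes with few reads. The code was tested on simulated counts. The alternatives were edgeR 4.0.16 and DESeq2 1.42.0 on recovered reads, other scalings, pseudocounts and filters, 2 groups only, a replicate block, a length correction and each library left out.

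Values in every library were to be given for members past the threshold with an absolute log2 fold change of at least 0.5 against control, for HIF1A and EPAS1 and for the paralogs of such members, and were in the end given for nearly all. From each further pathway list, at most 3 called genes per direction with the largest change could be named, besides the uncalled EGLN2 and PFKFB1. Cell type markers were named as examples outside this rule, and CHGA and GATA3 were not always among the largest changes of their list. The members, lists and naming rule were chosen with earlier results of these data known, among them falls of PFKFB3, EGLN3 and the list as a whole in the CSA knockdown, which are thus not independent support. Replicate numbers did not pair the libraries (correlation of deviations -0.043 to -0.022 over 13881 genes). Sequences are RefSeq's (GRCh38.p14); 34 of 39 members had a listed promoter.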

Additional observations from a re-analysis of the deposited data

How the results depend on the processing

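No member's called fold change reversed its sign in any of the 18 alternatives per comparison. Of the calls, 6 of 22 in the CSA knockdown (SLC16A1, HK2, PFKFB3, HIF1A, EPAS1 and EGLN3), 7 of 20 in the CSB knockdown (SLC16A1, ALDOA, ALDOC, TPI1, PKM, LDHA and PDK1) and 17 of 28 between the knockdowns held in every alternative. Outside the fits that left out a library, 19, 17 and 24 held. Another 14 of the uncalled values passed in some alternative, 1 of them ENO2 in the CSB knockdown, which passed in 10.

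For the CSA knockdown, the 3 members that rose became 5 with edgeR under TMM or upper quartile scaling, with genes averaging at least 10 scaled counts and with the gene length trend removed. For the CSB knockdown, the 3 that rose became 6 when only 2 groups were fitted. With the replicate block 18 members fell and 4 rose in the CSA knockdown and 16 fell and 4 rose in the CSB knockdown; ENO1 in the CSB knockdown (adjusted p = 0.0563) and GAPDH in the CSA knockdown (adjusted p = 0.105) lost the call. Across all genes the block gave 5259, 6575 and 8258 calls for the CSA knockdown, the CSB knockdown and the knockdowns against each other, against 5334, 6706 and 8340 without it.

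Leaving out a library lowered the counts most, although some counts went up. More members rose in the CSB knockdown without CSA 1 or CSA 2, and more were higher between the knockdowns without CSA 2. In these fits a group's lone library is assumed to vary like the other groups. In the CSA knockdown 7 to 14 members fell and 0 to 3 rose (7 and 0 without control 1). In the CSB knockdown 7 to 16 fell and 0 to 6 rose (7 and 0 without CSB 1, CSB 2 or control 1). Between the knockdowns 9 to 13 were higher and 8 to 16 lower (8 lower without CSB 2). Over all genes, calls dropped alike, to 1126 without control 1 in the CSA knockdown and to 1773 without CSB 1 in the CSB knockdown. The cause was not tested.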
